A study of Gossypium hirsutum with 17 samples.

Results

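The 92 probe sets described here had higher signals in cotton seedlings given ABA, mannitol or a medium of pH 11 and lower signals in seedlings moved to cold. They were chosen from 24029 probe sets of the Affymetrix Cotton Genome Array by a rule on the measured values: the mean log2 signal after quantile normalization was at least 1 above the control mean under ABA, under mannitol and at pH 11, and at least 1 below it in cold. On this scale a change of 1 is a fold of 2. Of the 2592 probe sets at least 1 above control in the first 3 conditions, 1128 were also at least 1 above control in cold, 1372 lay between, and only these 92 were at least 1 below it. The opposite pattern was found for 56 probe sets.

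The study compared abiotic stresses in whole seedlings of upland cotton (Gossypium hirsutum), all harvested 14 days after germination. The first 4 days were without treatment. Treatment was a medium with 1 μM ABA, with 200 mM mannitol, with 200 mM NaCl, or at pH 11 in place of 5.8. These treatments lasted 10 days. The cold seedlings instead spent 8 days at 25°C and then 2 days at 4°C, while control seedlings stayed at 25°C. The kind of stress and the length of treatment therefore cannot be told apart where cold is set against the other stresses. There were 3 arrays each for ABA, mannitol, cold, NaCl and control, and 2 for pH. The labels call the arrays biological replicates, but the study's methods say that the RNA of each treatment was pooled, so a p-value here measures the spread between arrays, which may be technical. Each signal is that of a whole seedling, in which fewer cells of a type and less RNA per cell cannot be told apart.

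ABA is a plant hormone that accumulates when water is short. Its receptors inhibit protein phosphatases, which frees kinases that open the response to drought. Mannitol in the medium lowers the water available to the root without adding salt, NaCl does so and adds toxic ions, and an alkaline medium disturbs the proton gradient and the uptake of iron and phosphate. Cold is sensed in part through calcium and acts on many genes through the CBF transcription factors, and it slows growth and metabolism directly. Many transcripts respond to ABA and to cold in the same direction, whereas the 92 were chosen for opposite directions.

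The deposited signals had been scaled in different ways. Once the top and bottom 2% of probe sets were trimmed, the mean signal was 500.1 for each of the 8 ABA, mannitol and pH arrays, against 107 to 127 in cold, 18.5 to 140 in NaCl and 118 to 120 in control. The conditions in which the 92 were high are therefore the ones whose arrays carry the common scale, and a difference in how the arrays were processed and the treatments cannot be told apart in those contrasts. The cold and NaCl contrasts with control lie within the other 9 arrays. The log2 ratio of the 3′ to the 5′ actin probe set, a sign of RNA degradation, was 4.46 to 5.31 under ABA, 2.85 to 3.97 under mannitol, 4.45 to 4.46 at pH 11, 2.69 to 7.22 in cold and 2.70 to 4.79 under NaCl, against 2.78 to 3.05 in control, and its part in the result was not tested. Cold replicate 3 had the highest of these ratios. The NaCl arrays were unlike each other. NaCl replicate 1 had the lowest scale, 18.5, and its closest array over all probe sets, NaCl replicate 3, reached r = 0.856, the lowest best match of the 17 arrays (across probe sets, which are not independent replicates). The array most like NaCl replicate 2 was cold replicate 2 (r = 0.941), and the one most like NaCl replicate 3 was control replicate 3 (r = 0.924).

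Most of the 92 were faint. Their median control mean was 3.26 on the log2 scale, against 6.02 for all probe sets, and 58 of them (63.0%) lay in the lowest 25% of control means, while 4 lay in the highest 25%. In 48 members the mean of even the highest condition stayed under 6.04, the median of all normalized values. These are called weakly measured, and they made up 52.2% of the members but 38.0% of all probe sets. The other 44 are called well measured by their highest condition alone, and the rule had set ABA, mannitol and pH high. The label therefore does not describe their control and cold levels. GhiAffx.7290.1.S1_at, for example, is well measured with means of 3.69 in control and 2.15 in cold. The median SD between arrays of a condition was 1.26 in the weakly measured members and 0.70 in the other 44. In the deposited units the median of the members was 86.2 to 105 under ABA, 136 to 150 under mannitol, 125 to 130 at pH 11, 1.83 to 2.24 in cold and 2.13 to 5.41 under NaCl, against 5.08 to 6.25 in control. The scales of the arrays differ, so these units compare only within an array. Values of a few units lie at the bottom of the range of these arrays, except in NaCl replicate 1, where the median of all probe sets was 5.41. After normalization 21 members had a cold mean below 0 on the log2 scale. For such members the size of the cold change is poorly determined.

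**Figure D1:**
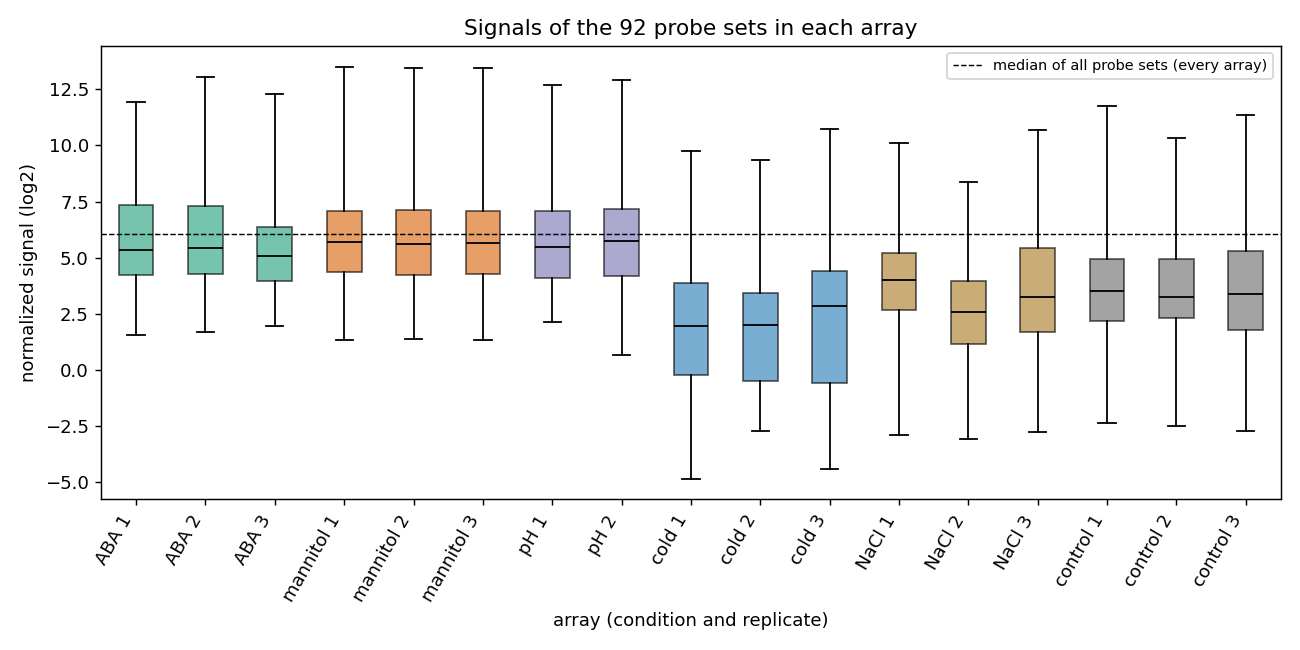
Normalized log2 signals of the 92 probe sets in each of the 17 arrays; boxes show the middle 50% with the median as a line, whiskers run from the lowest to the highest member, and the dashed line is the median of all probe sets. The 8 medians of ABA, mannitol and pH stand above all others, the cold medians are the lowest but for that of cold replicate 3, and the NaCl medians spread from 2.60 to 3.99.

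The level of the 92 as a group followed the rule in every array of its conditions. The median member signal was 5.36, 5.44 and 5.09 under ABA, 5.72, 5.61 and 5.67 under mannitol, 5.50 and 5.76 at pH 11 and 1.95, 2.02 and 2.87 in cold, against 3.51, 3.23 and 3.37 in control. The median change was 1.81 under ABA, 1.84 under mannitol, 1.93 at pH 11 and -1.39 in cold. These values chose the members and are a description. The higher signals were not of 1 size, since the changes ran up to 4.25 under ABA, 6.48 under mannitol and 5.62 at pH 11, whereas the cold changes ran from the limit of -1 down to -3.12.

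How many members were called in each contrast of the rule is given as a description. In the limma fit over all probe sets, with calls made at a fold of 2 or more and a p of 0.05 or less after Benjamini-Hochberg adjustment, 41 members were called higher under ABA (background 11.8% of all probe sets), 48 under mannitol (11.9%) and 39 at pH 11 (11.7%), while 15 were called lower in cold (5.48%). Every array lay above every control array for 80 members under ABA (26.7% of all probe sets), 83 under mannitol (28%) and 86 at pH 11 (30.7%), and every cold array lay below every control array for 34 members (17.7%). Since the rule used these contrasts, nothing is read from the counts against their backgrounds. The separation was complete in all 4 contrasts for 32 members (1.25%), of which 25 were well measured. The counts turned on single arrays. Under ABA the count was 24 without ABA replicate 2. Under mannitol it was 24, 27 and 30 without mannitol replicates 1, 2 and 3, and 31 and 30 without control replicates 1 and 2. At pH 11 it was 13 and 12 without pH replicates 1 and 2, and 25 and 22 without control replicates 1 and 2. In cold 6 members were called without control replicate 1, 6 without control replicate 3, 23 without NaCl replicate 1 and 31 without NaCl replicate 2. Leaving out an array changed the normalization, the estimate of spread and, for a control array, the control mean, and which of these moved a count was not tested.

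**Figure D2:**
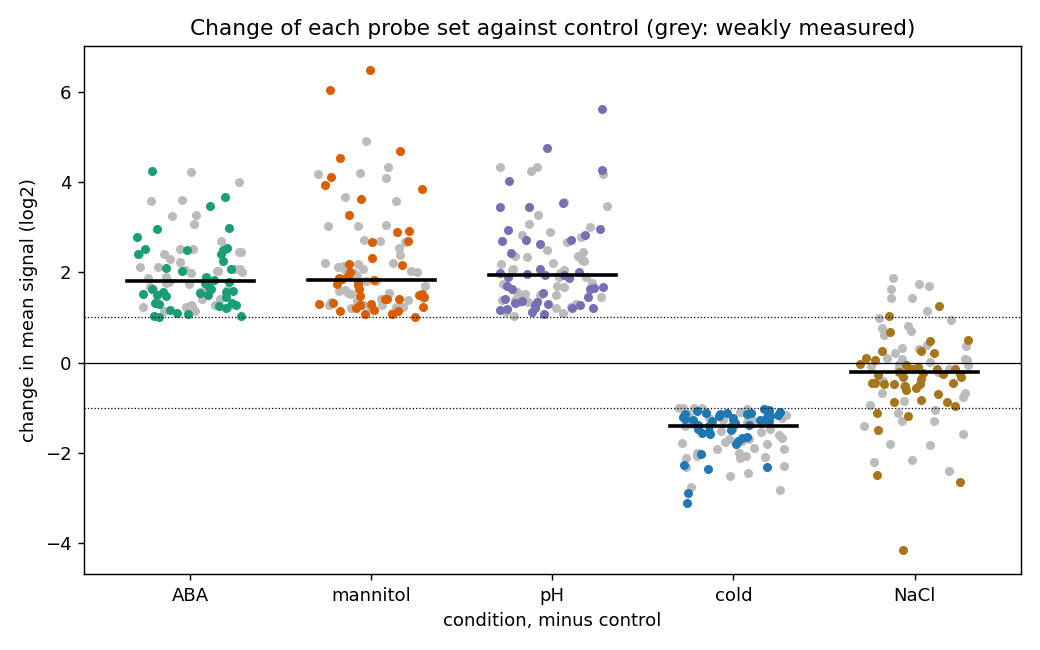
Change in mean normalized log2 signal of each of the 92 probe sets against control, for ABA, mannitol, pH, cold and NaCl; grey points are the 48 weakly measured members, black bars the medians, and dotted lines the limits of 1 and -1 that the rule set for the first 4 conditions. The NaCl changes, which the rule did not use, run from -4.15 to 1.87 around a median of -0.21.

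Few of the members have a name. None of the 92 is in the platform's table of named probe sets, 21 appear with a title or an organism in the parts of the study's tables that could be read, and 5 carry a usable name. Those tables were made from these same arrays. The other 87 are known only by their probe set identifiers, so the biology of the set rests on a small named fraction. All 5 names come from sequence similarity to a protein of another species.

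The kinase Ghi.3560.1.A1_s_at is weakly similar to an Arabidopsis protein with serine/threonine and tyrosine kinase activity, a class that passes on stress signals by phosphorylating other proteins. Its normalized log2 signals were 9.74, 9.49 and 9.34 under ABA, 9.61, 9.47 and 9.40 under mannitol, 8.81 and 9.56 at pH 11, 6.50, 5.97 and 6.95 in cold, 6.24, 6.44 and 7.33 under NaCl, against 7.62, 6.92 and 7.93 in control. All ABA, mannitol and pH arrays lay above all control arrays, while cold replicate 3 (6.95) lay just above control replicate 2 (6.92). The changes were 2.03 under ABA, 2.01 under mannitol, 1.69 at pH 11 and -1.02 in cold. Under NaCl the change was -0.82 (SE 0.36, limma adjusted p = 0.304), and the arrays of NaCl and control overlapped. Another probe set with the same cluster number, Ghi.3560.1.S1_s_at, has the same name and is no member. Its changes were 1.60 under ABA, 1.54 under mannitol, 1.28 at pH 11 and -0.27 in cold, so that it shared the higher signals, and its cold change fell short of the limit.

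Ghi.10117.3.A1_s_at is weakly similar to an Arabidopsis aspartic-type endopeptidase of the pepsin A kind, an enzyme that cleaves proteins in acidic compartments. It measured 8.36, 8.28 and 8.11 under ABA, 7.99, 7.24 and 7.12 under mannitol, 7.83 and 7.60 at pH 11, 3.49, 4.33 and 5.12 in cold, 6.97, 4.18 and 5.51 under NaCl, against 5.98, 5.09 and 6.04 in control. ABA gave the highest arrays. The cold arrays reached up to 5.12, just above the lowest control array, and the NaCl arrays spread across both. The changes were 2.55 under ABA, 1.75 under mannitol, 2.01 at pH 11 and -1.39 in cold, and -0.15 under NaCl (SE 0.58, limma adjusted p = 0.928). The 4 other probe sets of that cluster number, which have no name, did not share the higher signals: their changes ran from -0.58 to 0.26 under ABA, from -0.63 to 0.10 under mannitol and from -0.66 to 0.33 at pH 11, and their cold changes from -1.39 to 0.09.

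Calcium is represented by Ghi.4791.2.S1_at, weakly similar to an Arabidopsis calmodulin-binding protein. Calmodulin is the sensor that changes shape when it binds calcium and then acts on the proteins that bind it. The signals were 5.36, 5.21 and 5.04 under ABA, 6.39, 6.35 and 6.05 under mannitol, 7.13 and 7.62 at pH 11, 2.70, -0.47 and 3.95 in cold, 3.59, 2.44 and 3.91 under NaCl, against 4.05, 2.25 and 3.78 in control. The order was pH, mannitol, ABA, and no array of 1 of these conditions overlapped with those of another. Cold replicate 2 alone was far below the control arrays, and the other cold arrays lay within the control range. The changes were 1.84 under ABA, 2.90 under mannitol, 4.01 at pH 11 and -1.30 in cold. Between pH and ABA the difference was 2.18 (SE 0.94, limma adjusted p = 0.243) and between pH and mannitol 1.12 (SE 0.94, adjusted p = 0.844), neither past the threshold over all probe sets. Another probe set with the same cluster number, Ghi.4791.2.A1_at, has no name and is no member. Its changes were 0.92 under ABA, 1.74 under mannitol, 2.77 at pH 11 and -0.59 in cold. It was called for pH against ABA, with a difference of 1.85 (limma adjusted p = 0.0136).

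Ghi.9268.1.S1_x_at is strongly similar to a predicted protein of the dog (Canis familiaris), which is itself named only as similar to Copia protein. Copia protein is the polyprotein by which a retrotransposon copies itself. Retrotransposons are abundant in the cotton genome, and the suffix of this probe set marks that its probes may also bind unrelated transcripts. It gave 7.21, 7.64 and 7.50 under ABA, 8.34, 8.65 and 8.74 under mannitol, 8.21 and 8.77 at pH 11, 4.24, 2.73 and 4.70 in cold, -2.90, 2.24 and 3.10 under NaCl, against 5.02, 3.87 and 6.01 in control. The NaCl arrays were all below the control arrays, NaCl replicate 1 by the most, and the cold arrays overlapped with control. The changes were 2.48 under ABA, 3.61 under mannitol, 3.53 at pH 11 and -1.07 in cold, and -4.15 under NaCl (SE 1.15), the lowest NaCl value among the 92, with a limma adjusted p of 0.117. The other probe set of that cluster number, Ghi.9268.2.A1_at, has no name and did not share the higher signals. Its mean was -0.12 in control, and its changes were -1.25 under ABA, -0.66 under mannitol, -2.64 at pH 11 and -1.10 in cold. The last named member, Ghi.5684.1.A1_at, is annotated only as binding and was weakly measured. Its signals lay between 4.20 and 4.69 in each ABA, mannitol and pH array, but ran 2.56, -2.23 and -1.98 in cold and 3.34, -0.49 and -0.17 under NaCl, against -2.36, 2.46 and 2.32 in control, so that the cold and NaCl arrays overlapped with the control arrays.

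**Figure D3:**
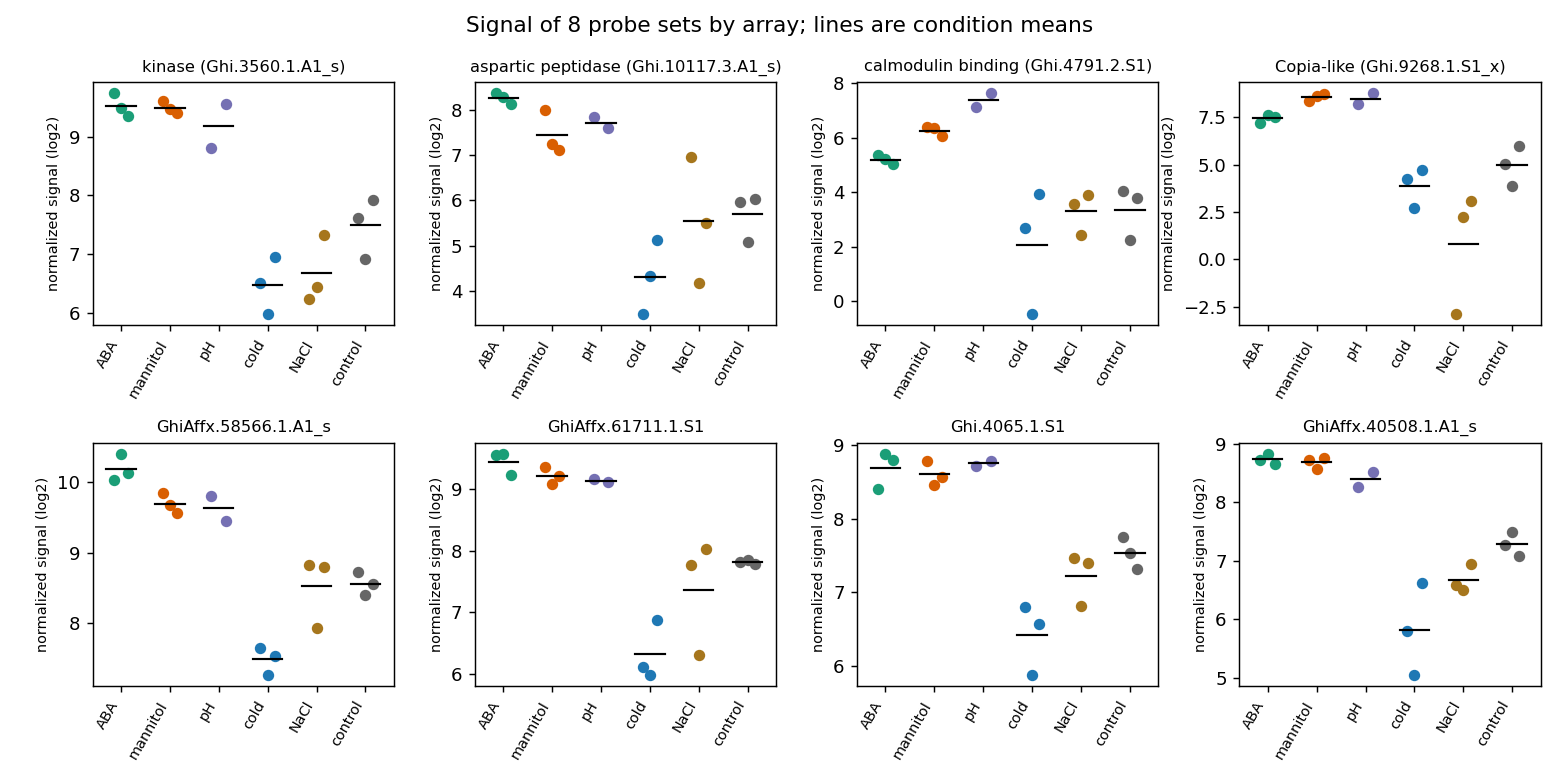
Normalized log2 signals of 8 probe sets in every array, by condition, with condition means as black lines; the upper row holds the 4 well measured members with a name and the lower row the 4 brightest of the 12 members called in all 4 contrasts of the rule. In the lower row every cold array lies under every control array and every ABA, mannitol and pH array above them.

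In all 4 contrasts of the rule 12 members were called (0.0499% of all probe sets), none of which has a name. Since a call needs the fold that the rule also set, a probe set called in all 4 directions had to be a member. The 12 were chosen after their values were seen, and 9 of them were well measured. Leaving out 1 array moved this count to between 2 (without control replicate 3) and 27 (without NaCl replicate 2). It was 3 without control replicate 1, 5 without control replicate 2, 5 and 6 without pH replicates 1 and 2, and 21 and 19 without NaCl replicates 1 and 3.

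GhiAffx.58566.1.A1_s_at was the brightest of the 12. Its signals were 10.03, 10.40 and 10.13 under ABA, 9.85, 9.68 and 9.56 under mannitol, 9.81 and 9.45 at pH 11, 7.65, 7.26 and 7.53 in cold, 8.82, 7.93 and 8.80 under NaCl, against 8.72, 8.39 and 8.56 in control. The groups of the rule were fully apart, with differences of 1.63 under ABA, 1.14 under mannitol, 1.07 at pH 11 and -1.08 in cold. NaCl replicates 1 and 3 lay just above the control arrays, and NaCl replicate 2 lay below them. Close to it stood GhiAffx.61711.1.S1_at, with 9.55, 9.57 and 9.23 under ABA, 9.35, 9.08 and 9.21 under mannitol, 9.16 and 9.11 at pH 11, 6.12, 5.99 and 6.87 in cold, 7.76, 6.30 and 8.03 under NaCl, against 7.82, 7.84 and 7.78 in control. Its 3 control arrays differed by less than 0.1, its changes were 1.63 under ABA, 1.40 under mannitol, 1.32 at pH 11 and -1.49 in cold, and again NaCl replicate 2 was the low NaCl array. Ghi.4065.1.S1_at gave 8.41, 8.88 and 8.80 under ABA, 8.78, 8.46 and 8.57 under mannitol, 8.72 and 8.78 at pH 11, 6.80, 5.88 and 6.58 in cold, 7.46, 6.81 and 7.40 under NaCl, against 7.76, 7.53 and 7.32 in control. Here all NaCl arrays lay under control replicates 1 and 2, and NaCl replicate 2 also lay under control replicate 3.

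Other well measured members of the 12 included GhiAffx.40508.1.A1_s_at (changes of 1.46 under ABA, 1.41 under mannitol, 1.12 at pH 11 and -1.46 in cold), Ghi.8978.1.S1_s_at (1.28 under ABA, 1.44 under mannitol, 1.66 at pH 11 and -1.30 in cold) and GhiAffx.7290.1.S1_at (2.95 under ABA, 3.27 under mannitol, 2.96 at pH 11 and -1.54 in cold). Ghi.26.1.S1_s_at, chosen after its values were seen and brighter than all 12, also had no overlap but was not called at pH 11. It measured 10.77, 10.86 and 10.54 under ABA, 10.87, 10.60 and 10.36 under mannitol, 10.65 and 10.47 at pH 11, 7.96, 7.75 and 8.26 in cold, 10.11, 7.90 and 9.45 under NaCl, against 9.61, 9.23 and 9.34 in control. NaCl replicates 1 and 3 stood with or above control, and NaCl replicate 2 stood with cold. Among probe sets with no name the rule on names took those with the widest span between the smallest higher change and the cold change, which were Ghi.403.1.S1_at and GhiAffx.54015.1.S1_at, both weakly measured. Ghi.403.1.S1_at had 5.35, 5.94 and 6.28 under ABA, 6.05, 5.57 and 5.85 under mannitol, 6.11 and 5.83 at pH 11, -1.0, -0.52 and -2.03 in cold, 3.07, 2.0 and 2.29 under NaCl, against 1.74, 2.09 and 1.06 in control. All 3 cold arrays were below 0 and all ABA, mannitol and pH arrays above 5, in a probe set with a low control level. GhiAffx.54015.1.S1_at had 4.62, 4.37 and 5.29 under ABA, 4.75, 5.68 and 4.39 under mannitol, 5.13 and 4.90 at pH 11, 0.90, -1.48 and -1.04 in cold, 1.57, 3.04 and 2.75 under NaCl, against 0.59, 0.90 and 0.81 in control, and its cold and control arrays overlapped.

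NaCl was the stress that the rule left out, and few members were called in it. The median change of the 92 under NaCl was -0.21, against -0.03 for all probe sets, with 33 members above control and 59 below. On the deposited scale the median was -0.93, where that of all probe sets was -0.79, it was -0.10 with median centring (0.04 for all), -0.12 with a common trimmed mean (0.02) and -0.03 with 32 added (0.00). Of the 92, 9 were at least 1 above control, 17 at least 1 below and 66 in between. The contrast shares its control arrays with those of the rule. The limma fit called 2 members lower (background 0.229%) and 0 higher (0.466%), and at an unadjusted p of at most 0.05 and the same fold it called 7 lower (3.72%) and 2 higher (4.71%). SAM, a permutation method, called 0 lower and 0 higher (0.00416% of all probe sets in either direction). The lower count was 0 without control replicate 1 or 3, 1 without control replicate 2, ABA replicate 1 or 2, NaCl replicate 1 or any 1 of the mannitol arrays, and 4 without cold replicate 3. The higher count was 1 without control replicate 3 and 2 without NaCl replicate 2. The shares of all probe sets called with an array left out are not given, so nothing is read from these moves. All NaCl arrays lay below all control arrays in 9 members (9.78%, against 7.98% of all probe sets) and above them in 3 (3.26%, against 7.16%).

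The 2 called members were Ghi.6546.1.S1_s_at and Ghi.8879.1.S1_at, and neither has a name. Ghi.6546.1.S1_s_at had the highest signals of the set, with 11.95, 13.04 and 12.30 under ABA, 13.51, 13.43 and 13.43 under mannitol, 12.70 and 12.92 at pH 11, 9.73, 9.36 and 10.74 in cold, 8.42, 8.38 and 8.67 under NaCl, against 11.74, 10.31 and 11.36 in control. All NaCl arrays lay below all control arrays, while cold replicate 3 lay within the control range. The NaCl change was -2.65 (SE 0.40, limma adjusted p = 0.0152), beyond its cold change of -1.19. The adjusted p was 0.0583 without control replicate 1, 0.0527 without control replicate 3, 0.223 on the deposited scale, 0.226 in a fit to control, cold and NaCl alone and 0.404 in a fit to NaCl and control alone. In Ghi.8879.1.S1_at the signals were 6.48, 6.47 and 5.90 under ABA, 6.52, 6.85 and 6.99 under mannitol, 6.67 and 7.19 at pH 11, 3.58, 3.54 and 4.23 in cold, 3.43, 3.64 and 3.59 under NaCl, against 4.87, 4.71 and 5.51 in control. The cold and NaCl arrays lay below the control arrays at similar levels. Its NaCl change was -1.48 (SE 0.28, limma adjusted p = 0.0376), and the adjusted p was 0.0535 to 0.110 when control replicate 1, 2 or 3, ABA replicate 1 or 2, mannitol replicate 1, 2 or 3 or NaCl replicate 1 was left out. It was 0.118 with median centring, 0.0719 with a common trimmed mean, 0.0662 with 32 added, 0.475 on the deposited scale, 0.0713 without cold replicate 3 and NaCl replicates 1 and 2 together, 0.339 in the fit to control, cold and NaCl and 0.582 in the fit to NaCl and control.

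The NaCl arrays differed from each other more than their mean shows. Relative to the control mean, the median difference of the members was 0.52 in NaCl replicate 1, -0.95 in NaCl replicate 2 and 0.16 in NaCl replicate 3. In NaCl replicate 2, 43 members (46.7%, against 14.6% of all probe sets) were at least 1 below the control mean. Under every control array lay 25 members in NaCl replicate 1 (37.2% of all probe sets), 55 in NaCl replicate 2 (34.1%) and 24 in NaCl replicate 3 (32.5%). NaCl replicate 2 was the lowest of the 3 NaCl arrays in 57 of the 92, and in 36.1% of all probe sets. Without NaCl replicate 2 the median NaCl change was 0.20 in place of -0.21. The limma fit then called 3 members lower and 2 higher, counts given without the shares of all probe sets called in that fit. Ghi.6559.1.S1_at and GhiAffx.40671.1.A1_s_at, chosen after their values were seen, show the split. In Ghi.6559.1.S1_at the signals were 9.52, 9.80 and 10.04 under ABA, 9.92, 10.01 and 10.01 under mannitol, 9.96 and 9.95 at pH 11, 6.13, 7.0 and 7.72 in cold, 10.11, 6.22 and 10.68 under NaCl, against 9.15, 8.35 and 8.75 in control. NaCl replicate 2 was among the cold arrays, and the other NaCl arrays lay above every ABA, mannitol and pH array. GhiAffx.40671.1.A1_s_at, with a cold change of -2.89, had 2.23, 3.68 and 1.98 in cold and 6.37, -0.26 and 6.92 under NaCl, against 5.78, 5.12 and 5.65 in control. There too NaCl replicates 1 and 3 were above control and replicate 2 was under every cold array.

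**Figure D4:**
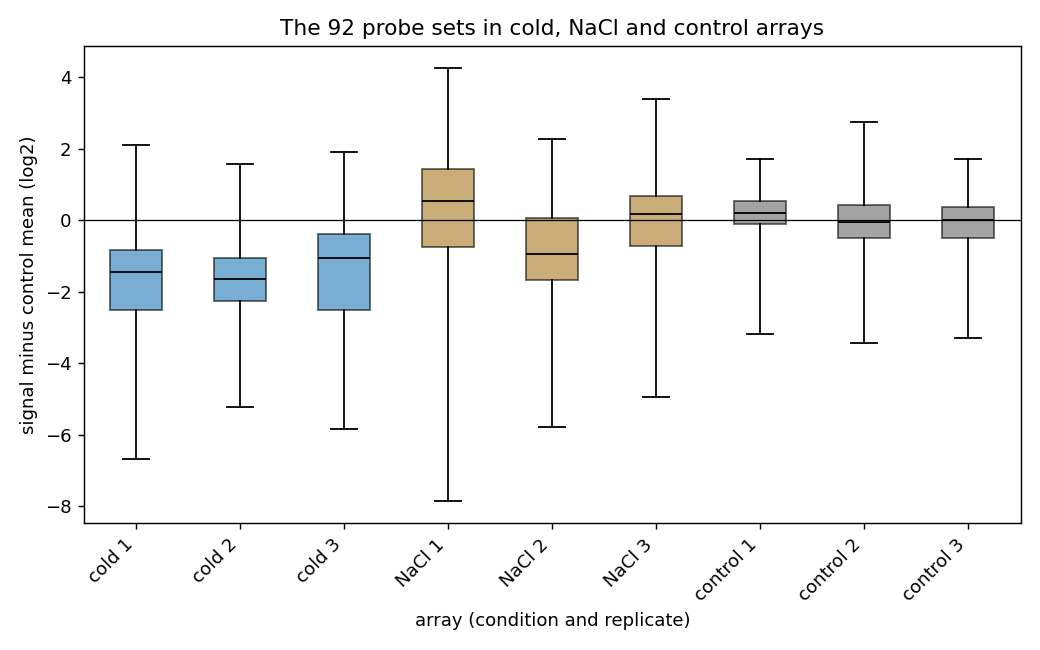
Normalized log2 signal minus the control mean for the 92 probe sets in each cold, NaCl and control array; boxes hold the middle 50%, lines mark the medians and whiskers run from the lowest to the highest member. NaCl replicate 2 has a median of -0.95, between the other NaCl arrays and the cold arrays at -1.44, -1.65 and -1.06.

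Set directly against NaCl, cold was lower in most members. The median difference of cold minus NaCl was -1.24 (0.00 over all probe sets), with 82 members below 0 and 60 at or under -1 (65.2%, against 11.4% of all probe sets). The rule had chosen the members for low cold arrays, so this too is a description. The limma fit called 4 of them lower (background 0.146%), all weakly measured and named here after their values were seen, and 0 higher (0.162%), against 34 lower (6.19%) and 2 higher (6.65%) at an unadjusted p, while SAM called 0 in either direction (0.00416%). The differences were -3.64 for Ghi.403.1.S1_at, -3.33 for GraAffx.241.1.A1_at, -2.99 for GhiAffx.54015.1.S1_at and -1.45 for Ghi.398.1.A1_s_at. The lower count was 34 without NaCl replicate 2, 1 without NaCl replicate 1, and 2 without NaCl replicate 3 or any 1 of the control, ABA, mannitol and pH arrays. The backgrounds above are those of the fit to all arrays. Shares of all probe sets called with an array left out are not given, so no trait of the members is read from these moves. GraAffx.241.1.A1_at showed the contrast well, with 0.57, 0.50 and -0.14 in cold, against 3.85, 3.49 and 3.59 under NaCl. Its NaCl arrays lay near those of ABA (3.93, 4.21 and 3.55), and control replicate 3 was close to these while the other control arrays were lower (1.46, 1.11 and 3.47).

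The rule set the same lower limit for ABA, mannitol and pH, so the levels of the members in these 3 conditions are given as a description. The highest mean was in ABA for 30 members, in mannitol for 27 and at pH 11 for 35. The median difference was 0.00 for ABA minus mannitol, 0.12 for pH minus ABA and 0.04 for pH minus mannitol, and the 2 means were within 1 of each other for 75 members (81.5%, against 83.6% of all probe sets) in the first comparison, 80 (87%, against 79.9%) in the next and 84 (91.3%, against 86.2%) in the last. The limma fit called 1 member lower under ABA than under mannitol (background 1.87%) and 0 higher (1.64%), against 6 lower (4.93%) and 0 higher (4.64%) at an unadjusted p. For pH against ABA it called 0 (4.02%), with 2 at an unadjusted p (11.1%), and for pH against mannitol 0 (0.562%), with 0 at an unadjusted p and the same fold (6.25%). SAM called 16 between ABA and mannitol (12.6% of all probe sets), 1 between pH and ABA (1.66%) and 1 between pH and mannitol (0.574%).

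The 1 member that the limma fit called between ABA and mannitol was Ghi.5549.1.A1_x_at, though others had larger differences. Ghi.5549.1.A1_x_at has no name, and its suffix marks probes open to cross-hybridization. Its signals were 6.75, 6.84 and 6.13 under ABA, 8.64, 8.71 and 8.86 under mannitol, 7.30 and 7.73 at pH 11, 2.50, 3.58 and 1.11 in cold, 4.60, 3.89 and 3.26 under NaCl, against 3.59, 4.58 and 4.01 in control. Mannitol stood above pH and pH above ABA with no overlap. ABA minus mannitol was -2.16 (SE 0.52, limma adjusted p = 0.0348), and the adjusted p was 0.0502 to 0.125 without any 1 of the ABA or mannitol arrays or cold replicate 1, 0.127 with median centring, 0.123 with a common trimmed mean and 0.777 on the deposited scale.

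ABA was at least 1 below mannitol in 15 members (16.3%, against 8.39% of all probe sets) and at least 1 above it in 2 (2.17%, against 8.04%). In all 15, every ABA array lay under every mannitol array, as it did in 74.9% of all probe sets with such a difference. The pH mean lay between the others in 12, and 5 were weakly measured. GhiAffx.43407.1.S1_at, chosen after its values were seen, had the lowest value of ABA minus mannitol, with signals of 6.30, 10.04 and 7.14 under ABA, 11.64, 12.06 and 12.17 under mannitol, 9.23 and 9.51 at pH 11, 4.02, 3.16 and 6.72 in cold, 8.09, 2.65 and 9.10 under NaCl, against 6.53, 4.48 and 6.78 in control. Its mannitol arrays were above all others, ABA replicate 1 lay among the control arrays and ABA replicate 3 just above them, and ABA minus mannitol was -4.13 (SE 1.46, limma adjusted p = 0.139).

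Among the 89 cluster numbers of the members, 3 held 2 members each, and these pairs, described after their values were seen, were not alike throughout. In cluster GhiAffx.25551 the NaCl change was 1.04 for GhiAffx.25551.1.S1_a_at and -1.40 for GhiAffx.25551.2.A1_at, which was weakly measured. The pair of cluster Ghi.904 had the same order of mannitol, pH and ABA. Ghi.904.1.S1_s_at measured 4.71, 4.90 and 4.28 under ABA, 7.24, 7.49 and 7.63 under mannitol and 6.32 and 6.86 at pH 11, against 0.94, 2.50 and -0.52 in control, and had the largest mannitol and pH changes of the set (6.48 and 5.62). The other, Ghi.904.1.A1_s_at, was fainter with the same order of these conditions, at 1.55, 3.0 and 2.65 under ABA, 5.61, 5.33 and 5.65 under mannitol and 4.73 and 4.87 at pH 11, against 1.08, 2.41 and -1.60 in control. Its ABA and control arrays overlapped, and its ABA mean (2.40) lay under its NaCl mean (2.50). In the first the ABA mean (4.63) lay above the NaCl mean (2.23). Both were lower under ABA than under mannitol or at pH 11 in every array.

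In cluster Ghi.6903 the ABA arrays disagreed in the same way in both probe sets. Ghi.6903.1.A1_at had 9.09, 8.31 and 4.94 under ABA, against 4.15, 4.88 and 4.33 in control, and Ghi.6903.1.S1_at had 7.34, 7.68 and 4.25 under ABA, against 5.06, 3.46 and 3.28 in control. ABA replicate 3 was near the control level in both. The same array was low in Ghi.3801.1.S1_s_at, also chosen after its values were seen, at 8.89, 5.96 and 3.04 under ABA, against 3.90, 2.35 and 3.29 in control.

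Probe sets of the same cluster numbers that are no members are described next. The rule shaped this group too, since any probe set of these clusters that met it is a member. None of them could therefore be at least 1 above control under ABA, mannitol and pH and also at least 1 below it in cold. They were measured on the same arrays, with the same differences of scale, so their shares are a description. There were 36 of these in 29 clusters. Of them, 12 (33.3%, against 10.8% of all probe sets) were at least 1 above control under ABA, under mannitol and at pH 11, and 7 (19.4%, against 15% of all) were at least 1 below control in cold. Above control in all 3 and below it in cold, by any amount, were 11 (30.6%), against 9.82% of all probe sets outside the 92. Taken singly, 22 (61.1%) were above control in all 3, against 34.7% of all probe sets, and 22 (61.1%) were below it in cold, against 50% of all. Probe sets of 1 cluster can share probes or transcripts and are not independent. Of the 2 with a name, Ghi.3560.1.S1_s_at is the kinase probe set described above. The other, Ghi.2133.1.S1_s_at, is weakly similar to Arabidopsis PSEUDO-RESPONSE REGULATOR 7, a transcriptional regulator of the circadian clock. Its changes were 2.73 under ABA, 3.48 under mannitol, 3.80 at pH 11 and -0.52 in cold, and -1.19 under NaCl, with cold and NaCl not called. The member of that cluster, Ghi.2133.3.S1_at, has no name and was weakly measured, with changes of 1.23 under ABA, 1.24 under mannitol, 1.29 at pH 11 and -1.10 in cold.

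By the series, orientation letter and suffix of their identifiers the members compare with the array as follows. G. hirsutum probe sets of the Ghi series made up 50% of the members and 43% of all, the GhiAffx series 30.4% and 26.9%, the GraAffx series 14.1% and 15.2%, and the Gra series, with 5 members, 5.43% and 14.2%. The orientation letter was A in 39 members (42.4%, against 44.3% of all) and S in 53 (57.6%, against 55.5%). Some probe sets described above share a cluster number and differ in this letter, as the kinase pair does. The part of the letter in their values was not tested. The plain suffix _at was held by 57 members (62%, against 53% of all). The suffix _s_at, for probe sets that match several transcripts, was held by 28 members (30.4%, against 38.7% of all), and _x_at by 5 (5.43%, against 6.48%). In these members the transcript measured is uncertain.

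Named groups of genes could hardly be compared with the set. Of 13 groups formed from patterns in the 1358 available names, 2 held a member and 11 held none. The patterns matched none of the 697 names of the platform's table. The groups therefore rest on the 661 names found only in the study's tables. Kinases and phosphatases counted 65 named probe sets, of which 57 were called higher under ABA, 46 under mannitol and 47 at pH 11, while 14 were called higher and 1 lower in cold and 0 higher and 1 lower under NaCl. The kinase described above is 1 of the 65. Protein turnover counted 21, of which 20, 20 and 18 were called higher in the same conditions, 4 were called higher in cold and 1 under NaCl. All the names in these 2 groups come from the study's own tables, which were made from these arrays, so these counts give no independent evidence of direction. As a check of the tissue, the name patterns found only 1 marker each of green tissue, root and fibre. The green tissue marker, a photosystem II protein, was called higher at pH 11 (change 1.59) and had changes of 1.04 under ABA, 0.63 under mannitol, -0.13 in cold and -0.26 under NaCl. The root marker was called higher under ABA (1.98), mannitol (2.88) and at pH 11 (2.00), with 0.88 in cold and 0.16 under NaCl. The fibre marker was called higher under ABA (1.91) and mannitol (1.58), with 0.31 at pH 11, 0.55 in cold and -0.46 under NaCl. Each marker is a single probe set, so no level of a tissue is read from it. The root list includes nitrate transporters, of which the study reports some raised and others lowered under every stress. The part of these markers in the result was not tested.

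Membership itself turned on small differences. Just inside the limit were GhiAffx.48150.1.S1_at, GraAffx.4641.1.S1_s_at, Ghi.4727.1.A1_at and GhiAffx.25551.2.A1_at, all with cold changes between -1 and -1.02. Just outside were Ghi.6783.1.S1_at, with a mannitol change of 0.99, and Ghi.5045.1.A1_at, Ghi.10358.3.A1_at and GhiAffx.51048.1.A1_s_at, each with a cold change of -0.99. Of these, Ghi.5045.1.A1_at is named, as moderately similar to an Arabidopsis DNA-binding transcription factor. When each array was left out in turn, 25 of the 92 met the rule every time, 15 of them well measured. A control array left out kept 58 to 65 members, a cold array 65 to 75, and any other array 85 to 92. With 32 added to each signal before the logarithm, which flattens differences near the floor, 4 of the 92 met the rule: Ghi.26.1.S1_s_at, Ghi.6546.1.S1_s_at, GhiAffx.40671.1.A1_s_at and GhiAffx.61711.1.S1_at.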

How the data were processed

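The data are Affymetrix Cotton Genome Array measurements of cotton seedlings on 17 arrays. The authors' values are MAS5 signal intensities, 1 for each of 24132 probe sets, deposited on a linear scale; MAS5 is named in the submitters' processing notes, and its version is not given in the sources used here. The study's methods speak of paired dyes, whereas the labels give a biotin label and 1 signal for each sample, so the arrays were read as 1-colour. The 103 Affymetrix controls on the array were dropped, and the log2 signals were quantile normalized over the 17 arrays because the deposited scales differed, and no filter on low signal was set. A single limma fit (version 3.58.1 in R 4.3.3; lmFit, then eBayes) had 1 coefficient per condition, and p-values were adjusted over all 24029 probe sets. A call needed a fold of at least 2 and an adjusted p of at most 0.05. The number of arrays, 2 or 3 per condition, limits the precision.

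The members, lists and tests were chosen with earlier results of these data known. The rule for named genes took every member with a name, up to 5 members with the smallest adjusted p among those called in each contrast outside the rule, 2 members with no name and the widest span, and probe sets sharing a cluster number with a named member; others were chosen after their values were seen. Arrays were not paired by number. Alternatives were other scalings, an offset of 32, a filter on the lowest 25% of signals, each array and 3 doubted arrays left out, a replicate block, SAM at a false discovery rate of 5%, unadjusted p, fits to fewer groups and a variance trend. The fit was tested on simulated data. Python 3.11.15 and matplotlib 3.10.9 drew the figures.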

Additional observations from a re-analysis of the deposited data

How the results depend on the processing

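The single changes followed through the alternatives were those of members called under NaCl, between ABA and mannitol or in cold against NaCl. None of these turned round. The changes of the other members printed here, among them those with a name, were not followed. The median NaCl change of the members, -0.21, was 0.20 without NaCl replicate 2 and 0.17 without the 3 doubted arrays, and without control replicate 3 the NaCl calls were 0 lower and 1 higher, in place of 2 lower and 0 higher. Leaving out 1 array at a time gave 80 to 135 members by the rule, 24 to 51 called under ABA, 24 to 56 under mannitol, 12 to 53 at pH 11, 6 to 31 in cold and 2 to 27 in all 4. It gave 0 to 4 members lower and 0 to 2 higher under NaCl, a median NaCl change of -0.47 to 0.20, 0 to 2 called between ABA and mannitol, 0 to 1 between pH and ABA, 0 between pH and mannitol, and 1 to 34 lower and 0 to 1 higher in cold against NaCl. Without cold replicate 3 and NaCl replicates 1 and 2 together, 142 probe sets met the rule, 72 members were called under ABA, 66 at pH 11, 48 in cold and 43 in all 4, 6 were lower and 1 higher under NaCl, 6 were called between ABA and mannitol and 2 between pH and ABA, and 38 were lower and 4 higher in cold against NaCl.

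Scaling decided the number of members. On the deposited scale 2916 probe sets met the rule, 92, 92 and 90 members were called under ABA, mannitol and pH, 1 in cold and 1 in all 4, and 0 under NaCl, between ABA and mannitol and in cold against NaCl. Scaling to 1 trimmed mean gave 194 by the rule, 35 called in cold, 25 in all 4, 1 lower under NaCl, 0 between ABA and mannitol and 14 lower in cold against NaCl. Median centring called 1 member under NaCl and 0 between ABA and mannitol. An offset of 32 left 4 by the rule, 24 called under ABA, 4 in cold, 3 in all 4 and 1 under NaCl, 5 between ABA and mannitol, 2 between pH and ABA, 1 between pH and mannitol and 0 in cold against NaCl. Leaving out the lowest 25% of signals kept 45 by the rule and 1 call in cold against NaCl. A fold of 1.5 gave 376 and a fold of 3 gave 19 by the rule.

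Replicates with the same number were no more alike than others once condition means were removed (mean r 0.00792 over 40 pairs, against -0.00405 over 80 pairs of other numbers). The replicate block called 1 member lower under NaCl (Ghi.8879.1.S1_at had an adjusted p of 0.0554) and 1 in cold against NaCl, and moved no other count by over 1.5 times. Fits to control, cold and NaCl alone called 0 in both comparisons. The variance trend called 2 in cold against NaCl. Unadjusted p called 62 under ABA, 43 in cold, 33 in all 4, 7 lower and 2 higher under NaCl, 6 between ABA and mannitol, 2 between pH and ABA, and 34 lower and 2 higher in cold against NaCl. SAM called 87, 88 and 87 under ABA, mannitol and pH, 21 in all 4, 0 lower under NaCl, 16 between ABA and mannitol, 1 in each pH comparison and 0 in cold against NaCl. Fits to the 2 compared conditions called 67 under ABA and 74 under mannitol, 13 between ABA and mannitol, 1 in each pH comparison, and 0 lower under NaCl and in cold against NaCl. Shares over all probe sets are not given beside the counts of members called in this section. For this reason nothing is read from the size of these counts in any contrast. For ABA, mannitol, pH and cold against control the rule had also set the direction. Except where an alternative's construction shows it, the cause of a moved count was not tested. The faint signals of most members limit all values in cold.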
